A study of Arabidopsis thaliana with 6 samples.

Results

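The tau and phi glutathione transferases of Arabidopsis are described here gene by gene. The members are the loci GSTU1 to GSTU28 of the tau class and GSTF2 to GSTF14 of the phi class, 28 and 13 genes, or 41 of the 33602 genes in the count files. The rule takes whole families by locus number, but the families were chosen by their fold changes in the same BAP and DMSO comparison, already known, so all changes of the members below are a description. RNA-Seq was made from primary roots of 7-d-old plants of the quadruple mutant ipt1,3,5,7, which lacks most of its own cytokinin because 4 isopentenyltransferase genes are mutated. All 6 libraries carry these mutations, and no wild-type root was part of the comparison. The 3 control libraries came from roots 1 h after transfer to medium with the solvent DMSO, and the other 3 came from roots 4 h after transfer to 1 µM BAP, a synthetic cytokinin. Root tips and lateral roots had been cut away, and the treatment and the time since transfer changed together, so their effects cannot be told apart.

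Glutathione transferases (GST) join the tripeptide glutathione to reactive or toxic compounds, and the conjugates are then moved into the vacuole by ABCC transporters. The tau and phi classes are the large plant classes. They are known for herbicide detoxification and for their response to stress and hormones, and some members carry or help to make flavonoids, camalexin or glucosinolates. Many members lie next to each other as products of tandem duplication.

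The libraries held 19957748 to 20127269 counts, so a single read was 0.0497 to 0.0501 CPM (counts per 1e6 counts). The levels below are CPM on library sizes scaled by TMM. Libraries of the same group had a Pearson's r of 0.988 to 0.992 across genes in log-CPM, and libraries of different groups 0.934 to 0.95. All 7 type-A response regulators that were looked at were higher after BAP, with log2 fold changes from 0.52 to 5.62 (6 of 7 when DMSO 3, BAP 1 or BAP 2 was dropped). No marker of the 4 marker lists was at 0 in all libraries. The summed level of the 8 markers of mature root was 958 to 1155 CPM in DMSO and 548 to 629 in BAP. PHO1, at 847 ± 117 and 293 ± 18.6 CPM, was the 1 marker of this list called lower, while 3 were called higher and the median log2 fold change of the 8 was 0.30. The summed level of the 6 root tip markers was 28.8 to 33.3 CPM in DMSO and 19.9 to 27.5 in BAP, with 2 called lower and a median of -0.05, and that of the 5 lateral root primordium markers was 99.6 to 107.7 and 66.2 to 87.2 CPM, with 3 called lower and a median of -0.61. The 7 shoot photosynthesis markers summed to 45.8 to 54.1 CPM in DMSO and 48.7 to 118.0 in BAP, with 2 called higher, 1 lower and a median of 0.70. Of all genes tested, 11.6% were called higher and 11.4% lower by the rule given below. The part of these marker shifts in the results was not tested. In bulk roots, fewer cells of a type and less RNA per cell cannot be told apart.

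Taken as a sum, tau and phi transcripts made up 0.855% ± 0.0732 of all counts in DMSO and 1.26% ± 0.0443 in BAP (SD, n = 3). The summed level was 8594, 7482 and 8843 CPM in DMSO and 12735, 13765 and 12543 CPM in BAP, so each BAP library was above each DMSO library. Tau transcripts were at 3650 ± 334 CPM in DMSO and 7752 ± 678 in BAP, a ratio of 2.12. Phi transcripts were at 4657 ± 494 and 5262 ± 421 CPM, a ratio of 1.13, and their groups overlapped. The larger class total was therefore phi in every DMSO library and tau in every BAP library. Of the difference of 4708 CPM between the group means of all members, GSTU19 held 2821 CPM and GSTF9 held 1042. Without GSTU19 the ratio of the tau sums was 1.64.

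**Figure D1:**
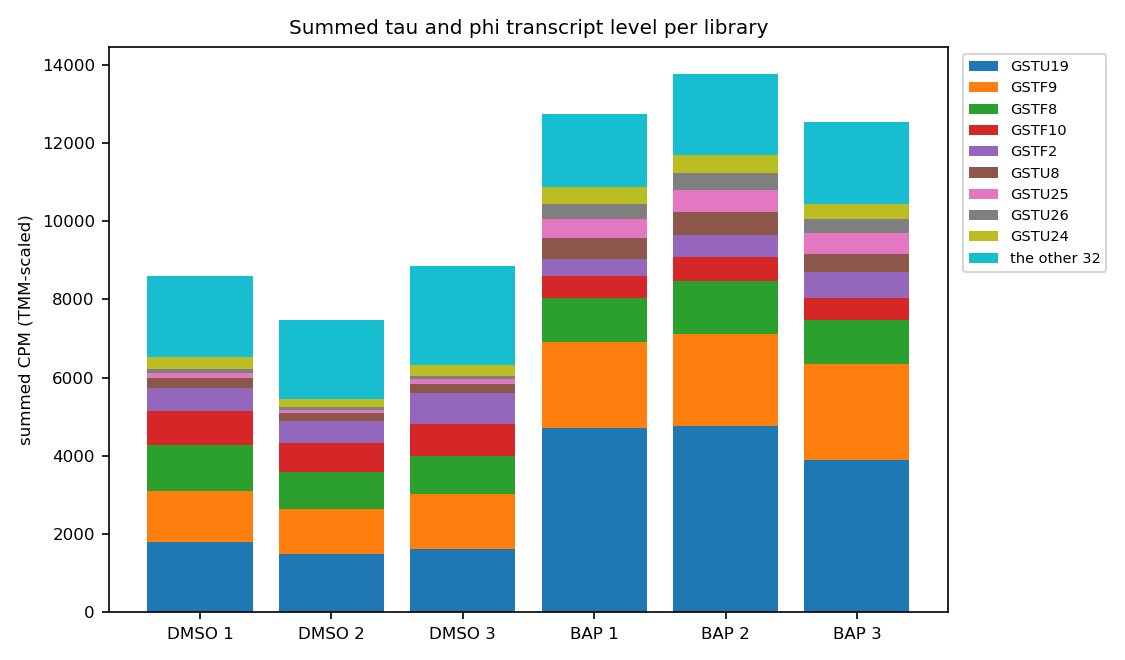
Stacked bars give the summed CPM (y axis, TMM-scaled) of the 41 genes in each of the 6 libraries (x axis), with 9 genes in colour and the other 32 together. The DMSO bars reach 7482 to 8843 CPM and the BAP bars 12543 to 13765, and GSTU19 is 18.3% to 21.0% of the counts in DMSO and 31.1% to 37.0% in BAP.

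Of the 41 members 39 had enough reads to be tested. A gene was called when its edgeR adjusted p did not exceed 0.05 and its log2 fold change was 0.5 or more in size. By this rule 11 members were higher and 9 were lower after BAP, beside 22.9% of all 20987 genes tested being called, 11.6% higher and 11.4% lower. In tau 9 were higher and 7 lower of 27 tested, and in phi 2 were higher and 2 lower of 12. Without BAP 3 the phi genes called lower were 4. The median log2 fold change was 0.04 over tested members, 0.25 in tau and -0.25 in phi, and 0.0005 over all genes tested. Without DMSO 3 these medians were -0.0173 over members, 0.16 in tau and -0.08 in phi. The groups did not overlap in 24 members, where 51.4% of all genes tested had no overlap. Thus members moved both ways, within each class and, as set out below, between neighbours.

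**Figure D2:**
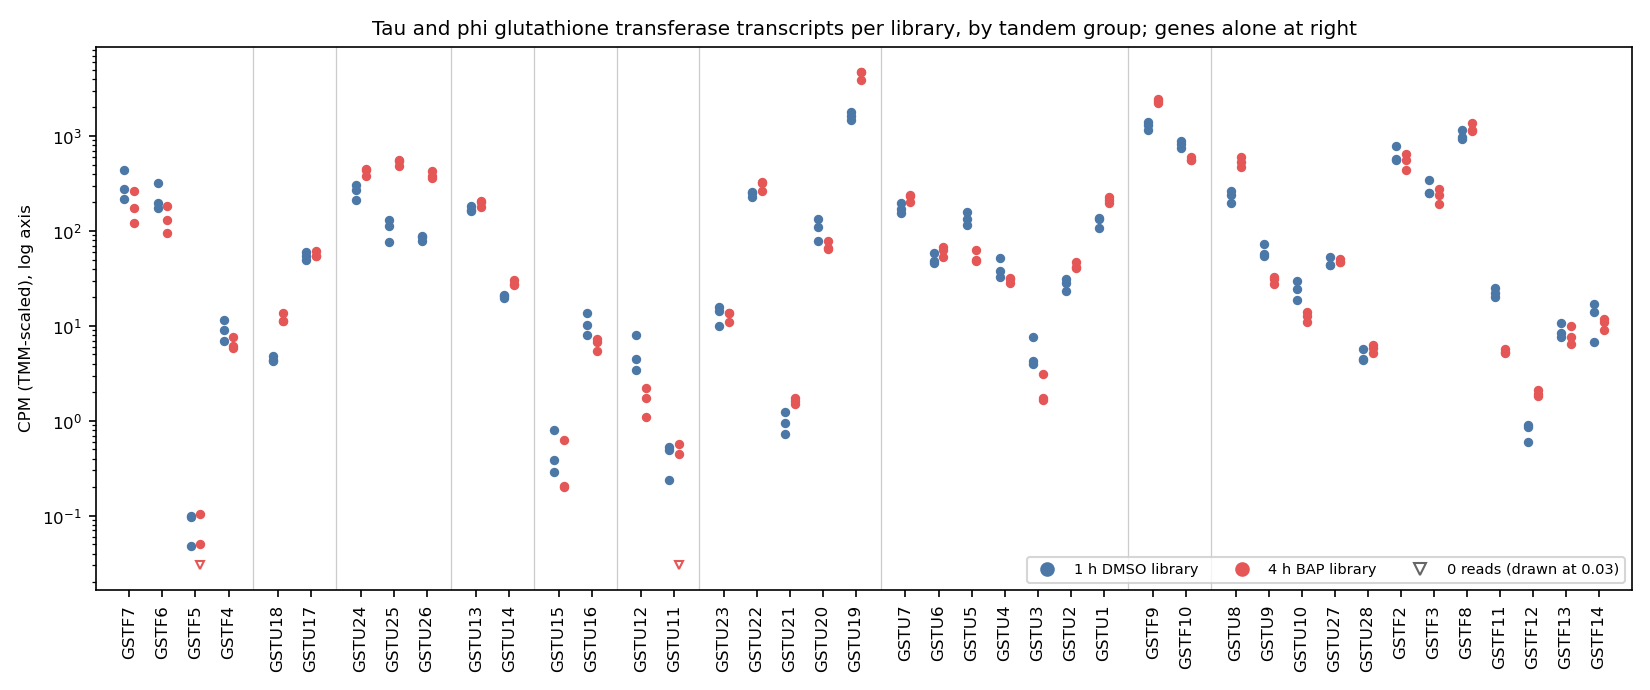
Each point is the level of a gene (x axis) in a library, in CPM on a log axis, with DMSO libraries in blue and BAP libraries in red. Genes stand by tandem group between grey lines, with genes alone at the right, and open triangles mark libraries with 0 reads. The levels span from GSTF5, with at most 2 reads in a library, to GSTU19 at 4756 CPM.

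Tandem groups were defined as runs of members with at most 3 other listed genes between neighbours. This gave 9 groups with 29 members and left 12 members alone. Of these groups 3 had calls in both directions, 2 had higher calls, 2 had lower calls and 2 had none. The lower calls of GSTU20 and GSTF10, each the only lower call in a group with both directions, were lost in some fits without 1 library. The same held for GSTU16, the only call of its group.

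The largest increases among the members lay in the group GSTU24, GSTU25 and GSTU26 on chromosome 1 (bases 5869846 to 5876545, TAIR10), where all 3 genes were called higher. GSTU24 and GSTU25 encode enzymes known to conjugate the explosive TNT, and GSTU26 is known for its response to herbicide safeners. GSTU25 (AT1G17180) was at 129, 77.0 and 112 CPM in DMSO and at 484, 565 and 540.4 CPM in BAP, a log2 fold change of 2.32 ± 0.17 (SE) or 4.99-fold. GSTU26 (AT1G17190) was at 88.8, 77.4 and 85.9 CPM in DMSO and 382, 429 and 359 in BAP, a log2 fold change of 2.21 ± 0.09. GSTU24 (AT1G17170) was at 301, 211 and 268 CPM in DMSO and rose to 443, 453 and 381 CPM (0.71 ± 0.13). The balance within the group changed with this. GSTU25 had 0.404 ± 0.0348 counts per count of GSTU24 in DMSO and 1.25 ± 0.162 in BAP. In CPM per kb of exon, GSTU25 moved from rank 16 to rank 3 among the 41 genes and GSTU26 from rank 18 to rank 8.

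The 300 bases before the annotated start of GSTU25 and GSTU26 are shown because these genes changed most. They are read 5′ to 3′ on the plus strand of chromosome 1 (TAIR10.1), with TGACG, the core site of TGA factors, in capitals in either direction. GSTU25 is chr1:5871724-5872023 and GSTU26 is chr1:5874995-5875294.
GSTU25: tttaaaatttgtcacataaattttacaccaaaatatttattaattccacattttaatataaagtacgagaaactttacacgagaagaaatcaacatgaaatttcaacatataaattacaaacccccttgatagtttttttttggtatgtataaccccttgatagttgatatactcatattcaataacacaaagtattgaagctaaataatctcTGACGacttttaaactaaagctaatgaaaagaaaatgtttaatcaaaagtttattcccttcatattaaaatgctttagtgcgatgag
GSTU26: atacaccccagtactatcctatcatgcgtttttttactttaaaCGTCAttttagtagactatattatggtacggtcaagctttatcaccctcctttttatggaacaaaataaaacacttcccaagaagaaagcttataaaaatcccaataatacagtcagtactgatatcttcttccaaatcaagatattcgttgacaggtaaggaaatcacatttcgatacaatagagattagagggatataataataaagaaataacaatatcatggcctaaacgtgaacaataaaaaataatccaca
GSTU25 has a TGACG 87 bases before the start, and GSTU26 has it in the reverse direction 257 bases before it. Both starts are those of the TAIR10.1 annotation, which differ from the positions in the count files.

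GSTU19 to GSTU23 form a group on chromosome 1 (bases 29467437 to 29487906). GSTU19 (AT1G78380), a main herbicide-conjugating enzyme of Arabidopsis, had the highest level per kb of exon of all members in both groups. It was at 1801, 1487 and 1614 CPM in DMSO and 4707, 4756 and 3902 CPM in BAP, a log2 fold change of 1.45 ± 0.13. Its neighbour GSTU20 (AT1G78370), which binds the jasmonate-conjugating enzyme JAR1, went the other way. GSTU20 was at 109.8, 78.8 and 133 CPM in DMSO and 66.2, 64.4 and 77.8 in BAP (-0.63 ± 0.17). The highest BAP library of GSTU20 lay just under the lowest DMSO library, and the call was lost without DMSO 3 (-0.46), BAP 1 (-0.59) or BAP 2 (-0.57). Per count of GSTU20 there were 16.4, 18.9 and 12.1 counts of GSTU19 in DMSO and 71.1, 73.9 and 50.1 in BAP, a measure that does not depend on library scaling. GSTU22 changed by 0.30 ± 0.10 and GSTU23 by -0.06 ± 0.17. Neither was called, although GSTU22 had no overlap between the groups. GSTU21 was low, with 19, 15 and 26 reads in DMSO and 34, 31 and 30 in BAP. It was called higher (0.74 ± 0.25), but DESeq2 (0.75) did not call it, and the call was lost when any library except DMSO 3 was dropped (0.55 to 0.80).

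**Figure D3:**
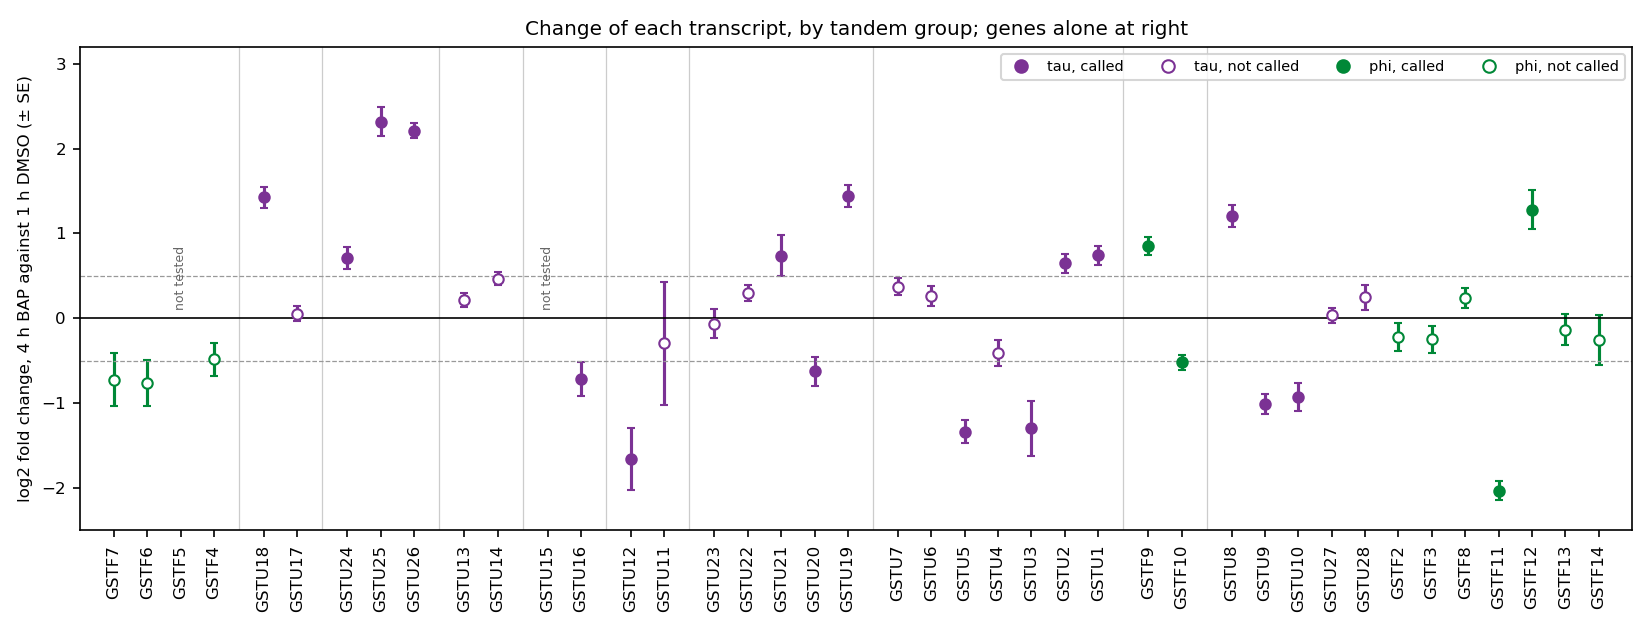
Each point is the log2 fold change of a gene, 4 h BAP against 1 h DMSO, with its SE as bars (y axis), in purple for tau and green for phi. Filled points were called, open points were not, dashed lines mark 0.5 and -0.5, and GSTF5 and GSTU15 were not tested. GSTU25 at 2.32 is the highest point and GSTF11 at -2.03 the lowest.

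The group of GSTU1 to GSTU7 on chromosome 2 (bases 12617936 to 12632473) split into genes that rose, fell or were not called. GSTU1 (AT2G29490) was at 135, 106 and 138 CPM in DMSO and 210.5, 229 and 195 in BAP (0.74 ± 0.11). GSTU2 next to it rose from 28.3, 23.1 and 30.9 CPM to 41.5, 46.6 and 40.9 CPM (0.65 ± 0.11). GSTU5 (AT2G29450), known as an early auxin-induced gene, fell from 159, 133 and 116 CPM to 49.99, 62.8 and 48.4 CPM (-1.34 ± 0.14). There were 0.946 ± 0.214 counts of GSTU1 per count of GSTU5 in DMSO and 3.96 ± 0.289 in BAP. GSTU3 was low and fell from 4.01, 4.29 and 7.68 CPM to 1.66, 1.72 and 3.09 CPM (-1.30 ± 0.33). That call was lost without BAP 2 (-1.16). GSTU4 (-0.41 ± 0.16), GSTU6 (0.27 ± 0.12) and GSTU7 (0.37 ± 0.10) were not called, although GSTU4 and GSTU7 had no overlap between the groups. GSTU4 was called lower without DMSO 2 (-0.56). Another listed gene covers 5.39% of the span of GSTU7.

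GSTU1 and GSTU7 are shown for a feature that the choice of members did not use. Each has TGACG on the same strand at starts 12 bases apart, the spacing of the as-1 element of plant promoters, which TGA factors bind. The stretches are read 5′ to 3′ in the direction of the gene (minus strand, TAIR10.1), chr2:12632587-12632627 for GSTU1 and chr2:12618932-12618972 for GSTU7, with both copies in capitals (in reverse as CGTCA in GSTU7).
GSTU1: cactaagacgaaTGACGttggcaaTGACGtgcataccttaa
GSTU7: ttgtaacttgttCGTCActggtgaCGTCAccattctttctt
The copies lie 77 and 65 bases before the start of GSTU1 and 61 and 49 bases before that of GSTU7. Starts are from the TAIR10.1 annotation, and that of GSTU1 differs from its position in the count files. In GSTU7 another TGACG, 52 bases before the start, overlaps the second copy. GSTU1 was called higher and GSTU7 was not called.

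Among the other tau pairs, GSTU17 and GSTU18 (chromosome 1, bases 3395558 to 3398358) shared 81.6% of their coding bases. GSTU18 was at 4.85, 4.39 and 4.22 CPM in DMSO and 11.4, 13.5 and 11.3 in BAP (1.43 ± 0.12), while GSTU17, linked to light and abscisic acid signalling, was at 54.0, 60.6 and 49.6 CPM and 54.8, 61.4 and 54.5 CPM (0.05 ± 0.09). The pair had 0.0825 ± 0.00908 counts of GSTU18 per count of GSTU17 in DMSO and 0.212 ± 0.00762 in BAP. GSTU13, which acts in indole glucosinolate metabolism, and GSTU14 were not called (0.21 ± 0.08 and 0.47 ± 0.08), and GSTU14 did not overlap between the groups and was called higher without BAP 2 (0.51). GSTU16 was called lower, from 13.8, 10.3 and 7.97 CPM to 6.73, 7.26 and 5.44 CPM (-0.72 ± 0.20), but not without DMSO 1 (-0.51), BAP 1 (-0.75) or BAP 3 (-0.61). Its partner GSTU15, with 16, 8 and 6 reads in DMSO and 4, 12 and 4 in BAP, was too low to be tested. GSTU12 fell from 4.46, 3.42 and 8.06 CPM to 1.09, 1.72 and 2.20 CPM (-1.66 ± 0.37), and GSTU11 had 0 to 11 reads in a library (-0.30 ± 0.73), where 0 reads allow up to 3.

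Of the 5 tau genes that stand alone, GSTU8 rose and GSTU9 and GSTU10 fell. GSTU8 (AT3G09270) was at 263, 197 and 237 CPM in DMSO and 533, 602 and 475 in BAP (1.21 ± 0.13). GSTU9 was at 57.2, 72.2 and 54.4 CPM and 30.9, 32.8 and 27.5 CPM (-1.01 ± 0.12), and GSTU10 was at 18.6, 24.3 and 29.4 CPM and 11.1, 12.6 and 14.2 CPM (-0.93 ± 0.17). None of the 3 overlapped between the groups, which held for every called member and for 51.4% of all genes tested. GSTU27 (0.04 ± 0.09) and GSTU28 (0.25 ± 0.15) were not called.

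In the phi class the neighbours GSTF9 and GSTF10 on chromosome 2 (bases 13138997 to 13142613) moved apart. Both are among the most abundant members, and in DMSO they took ranks 2 and 3 in CPM per kb of exon. GSTF9 (AT2G30860) was at 1304, 1168 and 1409 CPM in DMSO and 2212, 2360 and 2436 CPM in BAP, a log2 fold change of 0.85 ± 0.11. GSTF10 (AT2G30870), known as the dehydration-induced gene ERD13, was at 891, 748 and 819 CPM and 561, 595 and 562 CPM (-0.52 ± 0.09). The fall of GSTF10 is close to the fold minimum and passed under it with upper-quartile normalization (-0.498) and without DMSO 1 (-0.46). Per count of GSTF10 there were 1.46, 1.56 and 1.72 counts of GSTF9 in DMSO and 3.94, 3.97 and 4.34 in BAP, so the ratios did not overlap, whatever the scaling.

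The 300 bases before each of these starts are printed because the neighbours differ in direction. They are read on the plus strand of chromosome 2 (TAIR10.1), chr2:13138582-13138881 for GSTF9 and chr2:13140990-13141289 for GSTF10, with TGACG in capitals.
GSTF9: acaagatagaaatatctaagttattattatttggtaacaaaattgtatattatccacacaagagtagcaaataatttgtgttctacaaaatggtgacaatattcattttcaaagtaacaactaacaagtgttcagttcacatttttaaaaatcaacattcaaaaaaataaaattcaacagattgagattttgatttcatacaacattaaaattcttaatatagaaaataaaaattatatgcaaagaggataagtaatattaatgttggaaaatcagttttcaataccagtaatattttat
GSTF10: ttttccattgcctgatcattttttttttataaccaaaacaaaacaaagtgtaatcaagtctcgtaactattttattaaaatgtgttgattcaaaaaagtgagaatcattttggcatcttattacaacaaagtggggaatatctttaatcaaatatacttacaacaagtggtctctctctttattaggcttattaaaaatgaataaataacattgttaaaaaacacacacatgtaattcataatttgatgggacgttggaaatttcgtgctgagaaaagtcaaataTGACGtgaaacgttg
GSTF9 has no TGACG in this window, and GSTF10 has it 15 bases before the start. These starts are those of the TAIR10.1 annotation and differ from the count-file positions given for the tandem group.

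**Figure D4:**
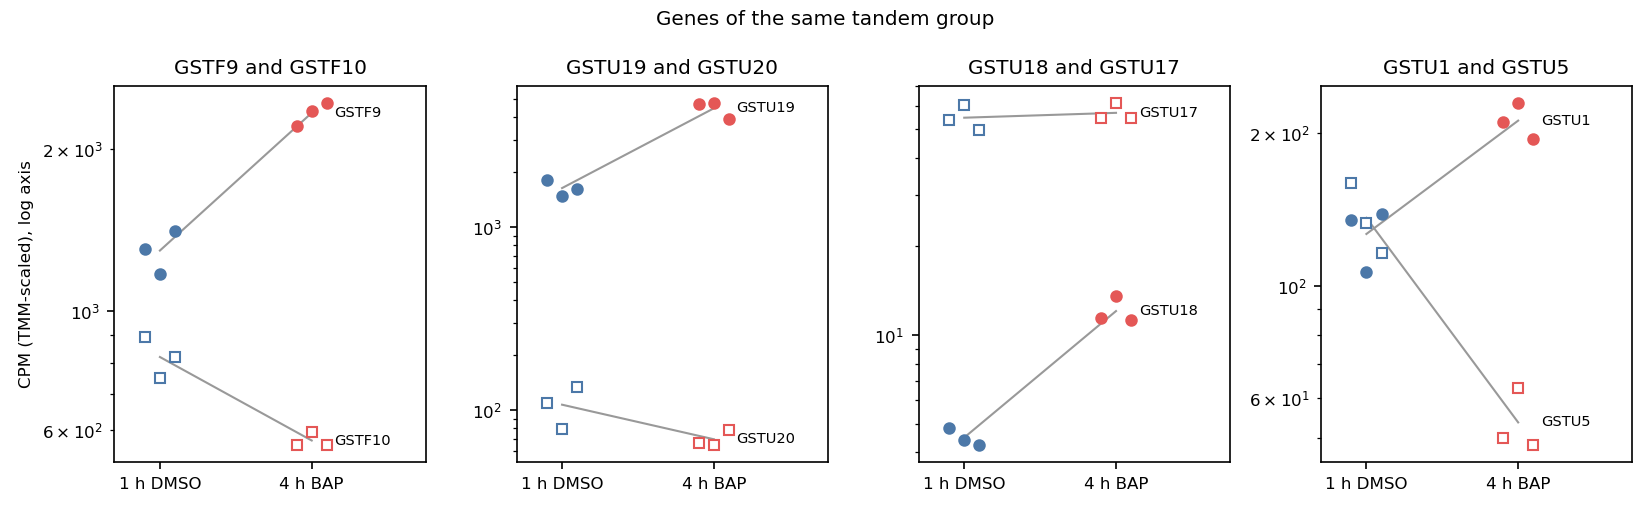
Each panel shows a pair of genes from the same tandem group, with CPM on a log axis (y) for the 3 libraries of 1 h DMSO in blue and of 4 h BAP in red, and lines that join the group means. Circles are the first gene named above the panel and open squares the second. GSTF9 and GSTU19 rise while GSTF10 and GSTU20 fall, GSTU18 rises beside a level GSTU17, and GSTU1 rises while GSTU5 falls.

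GSTF4 to GSTF7 lie side by side on chromosome 1 (bases 658657 to 666452), and the 3 that were tested were not called. GSTF6, an enzyme of camalexin synthesis, was at 173, 196 and 323 CPM in DMSO and 94.5, 131 and 181 in BAP (-0.77 ± 0.28). GSTF7 was at 216, 276 and 436 CPM and 122, 174 and 265 CPM (-0.72 ± 0.31). For both genes library 3 was the highest of its group and the groups overlapped through it. Within each replicate number the BAP library was below the DMSO library for both genes. With the replicate number as a block in the model both were called lower, although the labels name no batch. Across genes, deviations from the group means correlated at 0.212, 0.0508 and 0.291 between libraries of the same number. BAP 2 correlated more with DMSO 1 (0.0664), so it is not known that the numbers mark pairs. With treatment alone in the model, GSTF6 was called lower without DMSO 1 (-0.94) or BAP 3 (-1.03), and GSTF7 without BAP 3 (-1.06). GSTF4 (-0.48 ± 0.19) was called lower without DMSO 1 (-0.66), and 77.9% of its span is covered by another listed gene. GSTF5 had 2, 2 and 1 reads in DMSO and 2, 0 and 1 in BAP and was not tested. GSTF2, which binds camalexin and other small molecules, and GSTF3 lie on different chromosomes and were not called (-0.23 ± 0.17 and -0.25 ± 0.16). Library 3 was again the highest in both groups, as in 11 of the 41 members.

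Of the other phi genes, GSTF11 had the largest fall and GSTF12 was called higher. GSTF11 (AT3G03190), which is expressed together with genes of aliphatic glucosinolate synthesis, was at 21.9, 19.9 and 24.8 CPM in DMSO and 5.33, 5.23 and 5.69 CPM in BAP (-2.03 ± 0.11). GSTF12 (AT5G17220), the TRANSPARENT TESTA 19 gene needed for flavonoid transport to the vacuole, had 12, 18 and 19 reads in DMSO and 35, 40 and 38 in BAP (1.28 ± 0.23). Neither gene overlapped between the groups, as was so for every called member. GSTF8, a plastid-targeted stress gene, was abundant and not called, with 1161, 931 and 982 CPM in DMSO and 1121, 1363 and 1149 in BAP (0.24 ± 0.12). Another listed gene covers 16.4% of the span of GSTF8. GSTF13 (-0.14 ± 0.18) and GSTF14 (-0.26 ± 0.29) were not called, and GSTF14 was called lower without DMSO 2 (-0.58).

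All 28 tau genes have 2 coding exons with 654 to 765 coding bases, and 10 of the 13 phi genes have 3, with 627 to 846 coding bases over the class. GSTF2 and GSTF3 share 94.5% of their aligned coding bases and GSTF6 and GSTF7 share 94.3%. These are the members for which words of 50 exon bases also occur in a gene elsewhere, 2.46% and 3.51% of the words in GSTF2 and GSTF3 and 9.03% and 9.19% in GSTF6 and GSTF7, so reads could be mixed or lost between them, while the other 37 share none. The read length is not given in the sources used here. The ratio of counts of GSTF6 to GSTF7 was 0.75 ± 0.0485 in DMSO and 0.736 ± 0.0476 in BAP, and that of GSTF2 to GSTF3 was 2.28 ± 0.0199 and 2.32 ± 0.0369. In these 2 pairs the log2 fold changes differed by at most 0.04. In the 7 pairs with 80% to 90% identity they differed by a median of 1.06 and up to 1.61, beside 0.93 in 39 pairs with 70% to 80% and 0.99 in 369 pairs under 70%. Pairs share genes and are not independent, and these values describe the members only.

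The upstream windows of all members were searched for 2 short motifs, on both strands, in the 300 bases before the RefSeq gene start. TGACG was present in 17 of 41 members (41.5%) and in 21.3% of 27443 windows of protein-coding genes. It stood in 6 of the 11 members called higher, in 4 of the 9 called lower and in 7 of the other 21. The spacing of 12 bases on a strand was found in 2 of 41 members and in 0.07% of all windows. Those members, GSTU1 and GSTU7, lie in the same tandem group and are not independent cases. AGATCT, a word found in the sites of type-B response regulators, was present in 1 member, GSTF2, and in 7.21% of all windows. Only this exact word was searched, so the count does not tell whether members have other forms of these sites. Windows can overlap another gene, as that of GSTU18 does with GSTU17 and that of GSTU7 with AT2G00850.

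The other genes of the glutathione pathway were read from fixed lists. For comparison, 11.6% of all genes tested were called higher and 11.4% lower. Of 13 GST of other classes, all tested, 1 was called higher, and their median change was -0.02 (log2). Without DMSO 1 the calls were 2 higher and 1 lower, and without BAP 3 they were 2 higher with a median of 0.0097. The gene called was DHAR1, a dehydroascorbate reductase, which rose from 152 ± 7.93 to 297 ± 20.3 CPM (0.97 ± 0.08). The other 12 were within 0.44 of 0. Of 15 genes of glutathione synthesis, reduction and breakdown 3 were higher and 3 lower, with a median of -0.04. Without DMSO 2 the lower calls were 5 and the median was -0.13, and without BAP 1 they were 2 and it was 0.0042. GSH1, which encodes the first enzyme of glutathione synthesis, rose from 321 ± 25.8 to 631 ± 13.7 CPM (0.98 ± 0.08). The cytosolic glutathione-degrading enzyme gene GGCT2;1 (1.70 ± 0.21) and GGCT2;3 (1.58 ± 0.08) were also higher, while GGT1, for the apoplastic breakdown of glutathione (-1.79 ± 0.25), and GR1, for glutathione reductase (-0.81 ± 0.08), were lower.

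Among 15 ABCC transporter genes 2 rose and 6 fell, beside 11.6% higher and 11.4% lower of all genes tested. The median log2 fold change of the 15 was -0.46. ABCC4 rose from 52.4 ± 4.06 to 400.3 ± 39.7 CPM (2.93 ± 0.10) and ABCC10 changed by 0.76 ± 0.19. Among the lower genes ABCC7 (-1.36 ± 0.13), ABCC6 (-1.05 ± 0.12) and the phytate transporter gene ABCC5 (-0.89 ± 0.08) had the largest changes. Of 16 genes of the xenobiotic response other than GST 2 were higher and 3 lower, with a median of 0.08 (-0.01 without DMSO 2). The P450 gene CYP81D8 (1.37 ± 0.12) and the alkenal reductase gene AER (0.88 ± 0.15) were higher, and AATP1 (-1.47 ± 0.41), the efflux carrier gene DTX1 (-1.40 ± 0.34) and CYP81D11 (-0.71 ± 0.16) were lower. In the list of 9 TGA factors and SCL14, a GRAS protein that works with TGA factors in the detoxification response, 6 were lower and the median was -0.51. With upper-quartile normalization or without DMSO 1, 4 of them were lower. TGA7 (-1.06 ± 0.09), TGA1 (-0.81 ± 0.08) and TGA4 (-0.56 ± 0.10) fell most.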

How the data were processed

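Total RNA of ipt1,3,5,7 primary roots was sequenced in 6 libraries, 3 per group. After trimming, the authors used Bowtie2 for mapping and HTSeq for counting, and the deposited files hold the resulting raw counts. The submitters' processing notes also name FastQC and build TAIR10. Versions, strand setting and treatment of multiply mapped reads are not given in the sources used here. Gene positions come from the files, counted from 1. Of the listed nuclear genes, 32835 were found in the TAIR10.1 annotation, 10599 of them with the same start and end on the 5 chromosomes, and it supplied symbols, exons and upstream sequence.

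Counts were tested in R 4.3.3 with edgeR 4.0.16 (quasi-likelihood F test) after filterByExpr (minimum count 10, minimum total 15) with TMM scaling and treatment alone in the model. The filter kept 20987 genes and left out 12615. SE is the size of the log2 fold change over the square root of F, and the Benjamini-Hochberg adjustment covered every tested gene. The threshold is that of the study. Levels per kb used the union of annotated exons, and coding identity came from global alignment with Biopython 1.88. The fit was tested on simulated data.

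All 41 members were named or counted, and of each other list at most 3 genes in each direction, namely the called genes that changed most, averaged 1 CPM or more and did not overlap. Members and lists were chosen with earlier results of these data known. Alternatives were DESeq2 1.42.0 (DESeq2 is the authors' own tool), RLE and upper-quartile scaling, a filter at 1 read or at a mean of 1 CPM, the replicate block, other fold minimums and each library left out. The study calls the libraries biological replicates.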

Additional observations from a re-analysis of the deposited data

How the results depend on the processing

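Of the 20 called members 15 were called in each fit that left out 1 library, and no called member changed sign in any alternative run. A log2 fold change of at least 1 gave 1099 genes higher and 1072 lower over all genes, 6 and 5 over the members, 5 and 4 in tau and 1 and 1 in phi. With no fold minimum 3887 and 4061 of all genes were called, and 14 and 9 members. Upper-quartile normalization left 1 phi gene lower. With no filter beyond 1 read the median of the members was -0.0762, since 2 more members entered, and GSTF6 was called lower (-0.77).

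Dropping 1 library at a time gave 2200 to 2387 genes higher and 2107 to 2496 lower, 10 to 11 members higher and 7 to 11 lower, and 2 to 4 phi genes lower. The median of the members ranged from -0.0173 to 0.0494. The log2 fold changes of genes that were not called crossed 0: GSTU11 from -0.87 to 0.28, GSTU17 from -0.0293 to 0.12, GSTU23 from -0.25 to 0.0630, GSTU27 from -0.0321 to 0.12 and GSTF14 from -0.58 to 0.0105. The cause was not tested.

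The labels name no batch for the replicate numbers. Libraries with the same number had deviations from their group means that correlated, across genes, at 0.212, 0.0508 and 0.291, and each library correlated best with its own number except BAP 2, which correlated more with DMSO 1 (0.0664). Under the replicate block the calls were 2474 higher and 2455 lower over all genes, and 10 and 11 members, 4 of them lower phi genes, with GSTF6 (-0.76) and GSTF7 (-0.73) added and GSTU21 lost.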
